A study of Mus musculus with 2 samples.

Results

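The genes described here encode histone-modifying enzymes in mouse soft-tissue sarcoma cells, and their messenger RNA was compared between cells carrying a short hairpin RNA against the circular RNA circCsnk1g3 and cells carrying a control hairpin. They were taken from the count table by symbol: every gene named Hdac, Kat, Kdm, Kmt or Setd followed by a number. The table held 50 such genes, and 48 of them had at least 10 counts in 1 library, out of 12941 genes that met the same minimum and 25509 gene rows in all. The 48 genes comprised 11 histone deacetylases, 7 lysine acetyltransferases, 16 lysine demethylases, 8 Setd genes and 6 genes counted here as Kmt lysine methyltransferases, namely Kmt2a to Kmt2e and Setd8, an older name of Kmt5a. The 2 genes left out were Kdm4d, with 1 count in shcircCsnk1g3 cells and 2 in shCTR cells, and the Y-linked Kdm5d, with 1 count in shcircCsnk1g3 cells and 0 in shCTR cells. The gene with the fewest counts among those kept was Hdac11, with 64 and 79 in the same order, well above the minimum. The table carries Kmt5b, Kmt5c and Kat14 under older symbols that the rule does not reach.

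The cells were mesenchymal stem cells of the C57BL/6 strain made p53-/- and Ccne1+ (loss of p53 and overexpression of cyclin E1), a genotype that both groups share. They had grown as subcutaneous tumors, had been seeded into the lungs of further mice and re-isolated from lung foci, and were then transduced with shcircCsnk1g3, which is directed at the backsplice junction of the circle, or with shCTR. Poly(A) RNA of 1 library per group was sequenced, so no comparison below has a replicate and no test between the groups was possible. A backspliced circle has no poly(A) tail, so these libraries do not measure how far circCsnk1g3 itself was depleted.

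The shcircCsnk1g3 library held 38792143 counts and the shCTR library 42709996, and 15256 and 15326 genes had at least 1 count. The linear host gene Csnk1g3 had 2159 and 2411 counts, a log2 fold change of -0.05 with a 95% interval of -0.14 to 0.03. Of the engineered genes, Ccne1 had 893 and 963 counts and Trp53 3841 and 4334; reads from outside a deleted stretch can still be counted for Trp53, so its level checks nothing. Mesenchymal markers such as Col1a1 and Vim summed to 12485 CPM (read counts relative to library size) in shcircCsnk1g3 and 13024 CPM in shCTR, and of the 10 listed only Thy1 was at 1 count or fewer in both. Leukocyte markers summed to 2.30 and 3.86 CPM and 4 of their 8 genes had no count in either library; endothelial markers summed to 0.485 and 0.686 CPM, and lung epithelial markers to 0.408 and 0.521 CPM. The difference among leukocyte markers lay mostly in Cd68, with 87 and 155 counts. Fewer cells of a type and less RNA per cell cannot be told apart in such bulk samples.

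Histone tails carry acetyl and methyl groups that enzymes add and remove. Acetyltransferases (writers) and deacetylases (erasers) set lysine acetylation, which accompanies open, active chromatin. Methyltransferases with a SET domain and the demethylases of the LSD and Jumonji families set lysine methylation, whose meaning depends on the residue: methylation of lysine 4 of histone H3 (H3K4) marks active promoters and enhancers, H3K36 methylation marks transcribed gene bodies, and H3K9 and H3K27 methylation mark silenced chromatin. Most of these enzymes act as subunits of larger complexes, and several have roles in the self-renewal and differentiation of mesenchymal cells.

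Start sites differ widely in base composition among these genes, and the stretches shown here belong to 7 of the enzymes on which the results below turn, some higher and some lower in shcircCsnk1g3. Each is the 100 bases before a RefSeq transcription start on GRCm38.p6, written 5′ to 3′ on the strand of the gene, and lies outside the transcript that begins there. Starts of a gene are numbered by ascending coordinate, so the second start of Hdac9 and of Kat5, on the minus strand, is the upstream one. Capitals mark CpG dinucleotides, except in the second Hdac9 and the Kat5 stretch, where they mark a TATAAA box and an interferon-response-type motif (GAAA, 2 bases of any kind and GAAA) read on the opposite strand.
Hdac9, first start, chr12:34528890-34528989, minus strand: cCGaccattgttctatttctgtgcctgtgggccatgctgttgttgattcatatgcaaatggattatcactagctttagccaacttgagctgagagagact
Hdac9, second start, chr12:34917096-34917195, minus strand: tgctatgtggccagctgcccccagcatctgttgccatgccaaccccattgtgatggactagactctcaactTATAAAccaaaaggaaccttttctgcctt
Hdac4, chr1:92180342-92180441, minus strand: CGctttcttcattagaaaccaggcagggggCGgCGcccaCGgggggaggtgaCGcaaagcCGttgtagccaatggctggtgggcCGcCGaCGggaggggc
Kat8, first start, chr7:127912417-127912516, plus strand: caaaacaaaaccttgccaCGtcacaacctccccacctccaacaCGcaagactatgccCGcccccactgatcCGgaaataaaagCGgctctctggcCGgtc
Kat5, second start, chr19:5610095-5610194, minus strand: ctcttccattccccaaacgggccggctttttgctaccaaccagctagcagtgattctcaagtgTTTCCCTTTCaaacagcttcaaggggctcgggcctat
Kdm4a, chr4:118180044-118180143, minus strand: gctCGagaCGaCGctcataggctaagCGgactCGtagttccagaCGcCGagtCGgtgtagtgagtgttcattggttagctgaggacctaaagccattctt
Kdm5b, chr1:134560078-134560177, plus strand: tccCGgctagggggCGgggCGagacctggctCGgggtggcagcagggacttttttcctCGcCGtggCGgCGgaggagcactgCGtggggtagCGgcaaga
Kmt2a, chr9:44881290-44881389, minus strand: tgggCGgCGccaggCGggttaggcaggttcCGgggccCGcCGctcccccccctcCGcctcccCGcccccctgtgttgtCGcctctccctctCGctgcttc

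The Hdac9 stretches hold 1 and 0 CpG, the Kat5 stretch 3, that of Kat8 6, Kdm4a 8, Hdac4 9, and Kdm5b and Kmt2a 10 each. A second start of Kat8, not shown, has 1 CpG in the same span, and the first start of Kat5 has 11. Over the RefSeq window from 250 bases before to 50 bases after the start, 36 of the 48 genes had an entry, with 53 promoters among them. Their median CpG count was 22 per window, beside 20 over the 12677 promoters of genes that met the count minimum and 7 over all 32851 promoters. The ratio of observed to expected CpG was above 0.6 in 41 of the 53 (77.4%), beside 68.2% and 35.8% in those 2 sets. So the enzyme genes, like most genes expressed in these cells, mainly have CpG-rich starts, and both Hdac9 starts stand at the low end with 0 and 3 CpG in their windows. That interferon-response-type motif, searched on both strands, was found in 1 of the 53 promoters (Kat5, first base 37 before the start), a share of 1.89% beside 3.04% of promoters of tested genes and 3.44% of all promoters. Searched likewise, TGATGNAA, a motif of the ATF4 and CEBP type, was found in 1 (Kdm1a), beside 2.31% and 3.97%. TATAAA was found in 2 (Hdac9, first base 29 before its second start, and Hdac8 on the opposite strand), or 3.77%, beside 7.23% and 13.6%. A match describes letters and is not a bound site.

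**Figure D1:**
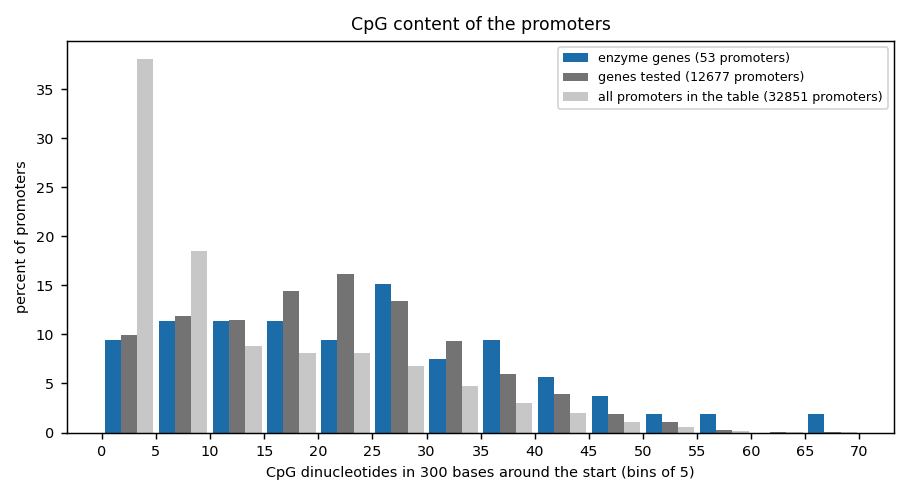
Percent of RefSeq promoter windows (y axis) by the number of CpG dinucleotides in the window (x axis, bins of 5), for the enzyme genes (53 promoters), the genes that met the count minimum (12677) and all promoters in the table (32851). The enzyme genes are spread much as the tested genes are, while 38.0% of all promoters fall in the lowest bin.

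As a group the enzymes differed little between the libraries. Their counts summed to 151338 in shcircCsnk1g3 and 162658 in shCTR. After scaling by TMM (a library-size correction from the trimmed mean of gene ratios) the log2 ratio was 0.0035, with an interval of -0.0066 to 0.014. With total counts in place of TMM it was 0.035, with an interval above 0 (0.025 to 0.045). All intervals given are 95% Clopper-Pearson intervals from the 2 counts; they cover counting error only, not variation between cultures. The median log2 fold change of shcircCsnk1g3 over shCTR was 0.029, with an interquartile range of -0.10 to 0.14, beside a median of 0.0023 over all genes tested. In size, without sign, the median was 0.12, beside 0.16 over all genes tested. Depth bears on that size, and with a minimum of 1000 summed counts it came to 0.10 over 41 enzymes and 0.12 over 8719 genes.

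Past a 1.5-fold difference, 1 of the 48 genes was higher in shcircCsnk1g3 (Hdac9), where 5.39% of all genes tested were, and none was lower, where 6.31% were. Among genes with at least 200 summed counts, 47 of the enzymes included, the same shares were 1.99% and 3.14%. Past a smaller log2 fold change of 0.32, 4 were higher (Hdac9, Setd4, Kat8 and Kdm4a) beside a background of 12.3%, and none was lower beside 13.1%. Among genes with at least 200 summed counts those backgrounds were 7.79% and 9.06%, while 8.51% of the 47 enzymes were higher and none lower. The enzymes' shares, 2.08% past 1.5-fold and 8.33% past the smaller difference in both directions together, did not exceed those of all genes tested. By sign alone 26 were higher and 22 lower, where 50.4% and 49.6% of all genes were. The interval lay above 0 for 17 genes and below 0 for 13, beside 26.9% and 28.2% of all genes tested. Depth narrows the interval, so the better comparison is again among genes with at least 1000 summed counts, of which 15 and 13 of the 41 enzymes lay above and below 0, beside 30.8% and 33.0%.

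**Figure D2:**
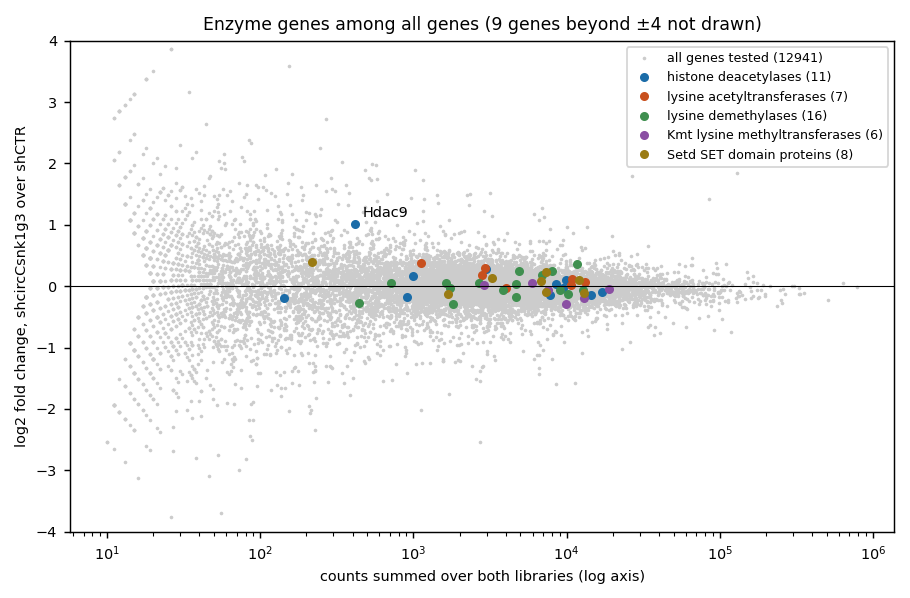
Log2 fold change of shcircCsnk1g3 over shCTR (y axis) against the counts summed over both libraries (x axis, log scale), with all 12941 genes tested in grey and the 48 enzyme genes coloured by class; 9 genes beyond 4 in either direction are not drawn. The enzymes lie within the cloud at each depth, and Hdac9, at 1.01 with 416 summed counts, stands at its upper edge.

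Levels of the enzymes spanned a wide range. Per kilobase of exon, which allows genes to be compared, Hdac1 was the most abundant with 48.6 CPM per kilobase in shcircCsnk1g3 and 53.9 in shCTR. It was followed by Setd8 with 43.2 and 44.4, the sole enzyme that places a single methyl group on H4K20, and by Kat2a with 38.1 and 37.7. At the other end, Hdac9 had 0.473 and 0.232 CPM per kilobase, Hdac11 0.424 and 0.486, and Setd4 0.569 and 0.431. Hdac9 and Setd4, which had the highest log2 fold changes, were thus among the least abundant.

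**Figure D3:**
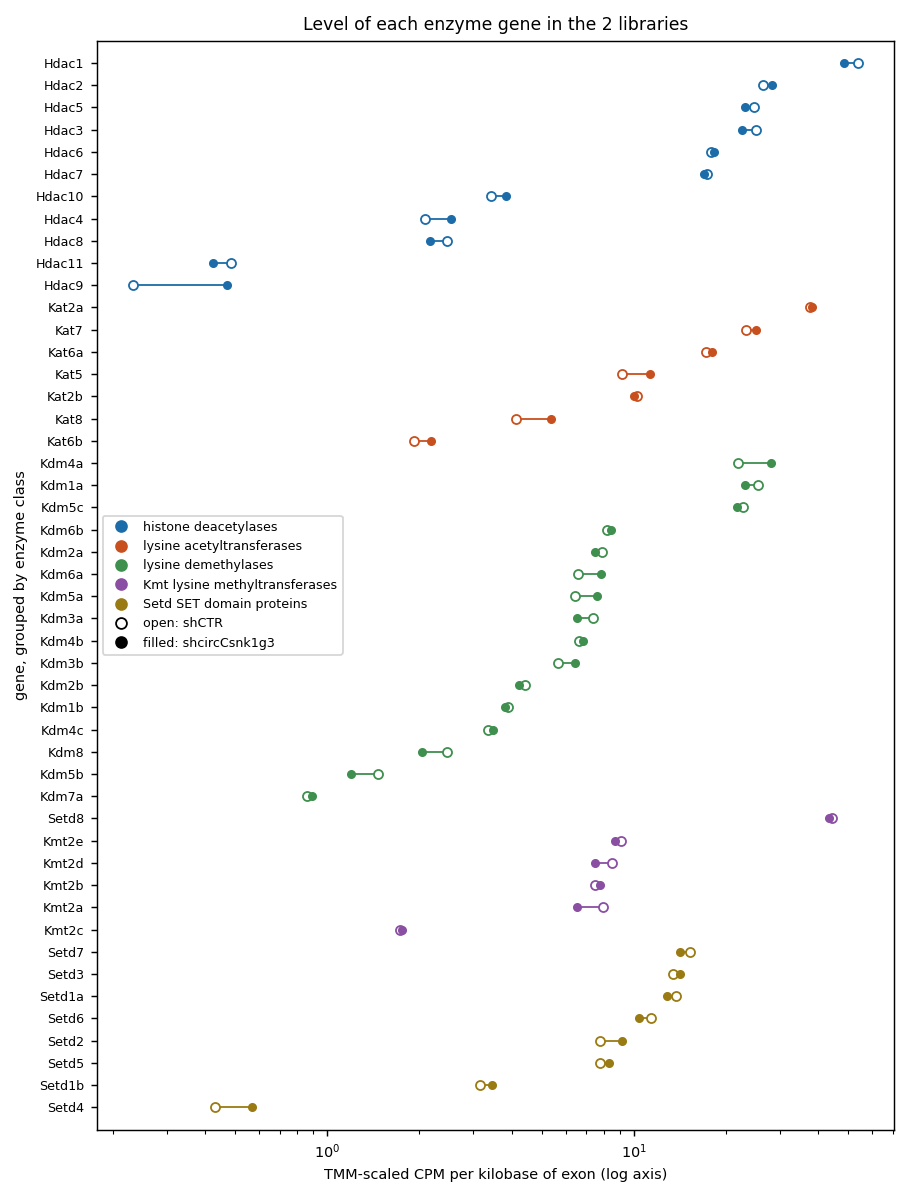
TMM-scaled CPM per kilobase of exon (x axis, log scale) of each enzyme gene (y axis, grouped by class and ordered by level), open points for shCTR and filled points for shcircCsnk1g3, 1 library each. The distance between the points is small beside the range across genes, and is widest for Hdac9 with 0.473 and 0.232.

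Among the histone deacetylases, class I and class IIa members differed in direction gene by gene. Of class I, Hdac1, Hdac2 and Hdac3 are the catalytic core of nuclear corepressor complexes. Hdac1 had 6571 counts in shcircCsnk1g3 and 7844 in shCTR, a log2 fold change of -0.15 (interval -0.20 to -0.10). Its paralog Hdac2, which occupies the same complexes, had 4962 and 5005 counts and a log2 fold change of 0.10 (0.04 to 0.15), which became 0.019 once the median of genes of like GC content and length was subtracted. The 2 intervals did not overlap, and the difference between the 2 log2 fold changes was -0.24. Hdac3, the deacetylase of the NCoR and SMRT complexes, had 3575 and 4277 counts, a log2 fold change of -0.15 (-0.22 to -0.09). Hdac8 had 410 and 501 counts and -0.18, with an interval that reached 0 (-0.37 to 0.01). Summed over the 4 class I genes the log2 ratio was -0.08 (-0.11 to -0.05), a sum in which Hdac1 weighs most.

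Class IIa deacetylases have little catalytic activity of their own, shuttle between nucleus and cytoplasm and restrain MEF2 transcription factors. Hdac9 had 272 counts in shcircCsnk1g3 and 144 in shCTR, or 6.94 and 3.41 CPM, a log2 fold change of 1.01 (0.73 to 1.33). It is the one enzyme here whose interval lay wholly beyond 1.5-fold, and its gene spans chr12:34047580-34917095 on the minus strand of GRCm38. Hdac4, its close relative, had 1568 and 1395 counts and a log2 fold change of 0.28 (0.17 to 0.38). About 22.4% of the exon length of Hdac4 is shared with an annotated gene on the opposite strand, Gm26720, and the sources used here do not say if reads were counted by strand, so reads of these genes cannot be told apart. Hdac5 had 7922 and 9159 counts and lay on the other side of 0, at -0.10 (-0.15 to -0.06), 0.38 below Hdac4, and at -0.032 after the same subtraction. Hdac7, with 4475 and 4948 counts, was at -0.04 (-0.10 to 0.02).

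The remaining deacetylases had intervals that held 0. Hdac6, a mainly cytoplasmic tubulin deacetylase, had 4175 and 4392 counts (0.03, interval -0.03 to 0.10), Hdac10, a polyamine deacetylase, had 507 and 488 (0.16, -0.02 to 0.34), and Hdac11 was at -0.19 (-0.69 to 0.30). The 11 deacetylases divided into 5 with a higher and 6 with a lower value, and their median was -0.04. Their summed counts of 34501 and 38232 gave a log2 ratio of -0.04 (-0.06 to -0.02), and with total counts in place of TMM it was -0.0093 with an interval that held 0 (-0.030 to 0.012). With TMM but without Hdac1 it was -0.014 (-0.038 to 0.0093) and without Hdac5 -0.022 (-0.046 to 0.0022), so the interval held 0 there too.

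The lysine acetyltransferases leaned the other way, through the MYST family. All 5 MYST genes were higher in shcircCsnk1g3 with intervals above 0, where 30.8% of genes with at least 1000 summed counts had such an interval. Kat8 (MOF), which acetylates H4K16, had 610 and 506 counts, or 15.6 and 12.0 CPM, a log2 fold change of 0.38 (0.20 to 0.55). Kat5 (TIP60), the catalytic subunit of the NuA4 complex, had 1553 and 1360 counts and 0.30 (0.19 to 0.41). Kat6b had 1438 and 1362 counts and 0.19 (0.08 to 0.29). Kat7 (HBO1), which acetylates H3K14 and helps to license replication origins, had 5448 and 5415 counts and 0.12 (0.06 to 0.17). Kat6a (MOZ) had 6483 and 6666 counts and 0.07 (0.02 to 0.12). Counts alone hide these differences because the shCTR library was sequenced more deeply. The MYST genes summed to 15532 and 15309 counts, a log2 ratio of 0.13 (0.10 to 0.16), and their median log2 fold change was 0.19.

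The MYST differences stayed above 0 under every scaling tried. The lowest of the 5 was 0.07 with DESeq2 size factors, 0.10 with total counts, and 0.08 after the median of genes of like GC content and length was subtracted. A share of the exon length overlaps a gene on the opposite strand in Kat5 (12.1%, Rnaseh2c) and Kat8 (4.2%, Prss8). By contrast, the 2 GNAT enzymes, which serve as alternative catalytic subunits of the SAGA and ATAC complexes, had intervals that held 0: Kat2a had 5204 and 5539 counts (0.02, interval -0.04 to 0.07) and Kat2b had 1917 and 2112 (-0.03, -0.12 to 0.06). Over the 7 acetyltransferases the median was 0.12, and the summed counts of 22653 and 22960 gave 0.09 (0.06 to 0.11).

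**Figure D4:**
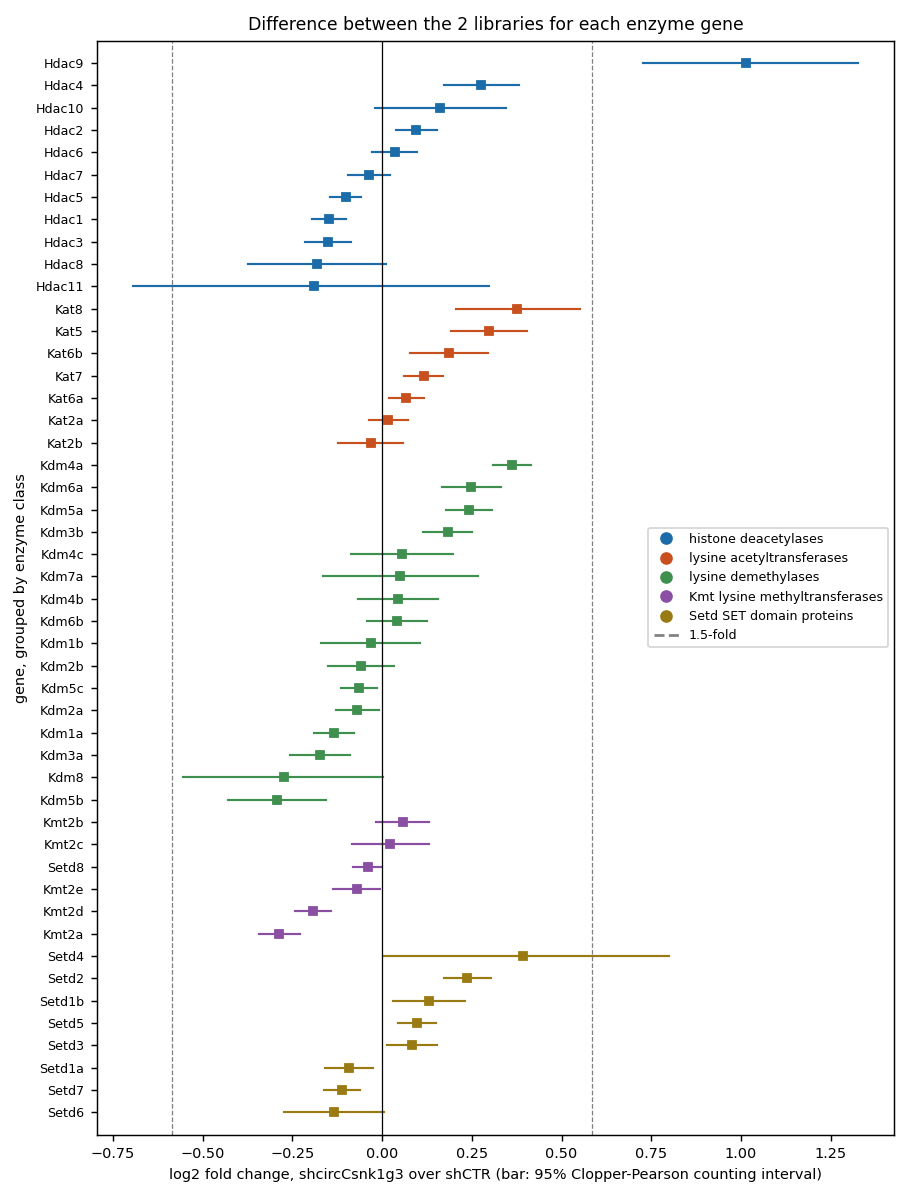
Log2 fold change of shcircCsnk1g3 over shCTR (x axis) for each enzyme gene (y axis, grouped by class), squares for the value and bars for the 95% counting interval, with dashed lines at 1.5-fold. Hdac9 alone lies past the dashed line; the 5 MYST acetyltransferases Kat8, Kat5, Kat6b, Kat7 and Kat6a all lie to the right of 0, and Kmt2a and Kmt2d to the left.

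The lysine demethylases split evenly into 8 with a higher and 8 with a lower value, and their median was 0.0051. Kdm4a, which removes methyl groups from H3K9 and H3K36, had the most counts of those with a higher level: 6352 and 5325, or 162 and 126 CPM, a log2 fold change of 0.36 (0.31 to 0.41). Its family members Kdm4b, with 1314 and 1373 counts (0.04, -0.07 to 0.15), and Kdm4c, with 796 and 825 (0.06, -0.09 to 0.20), had intervals that held 0 and ended below that of Kdm4a. So the summed log2 ratio of the KDM4 genes, 0.28 (0.23 to 0.32), rested on Kdm4a. The same holds for the whole class: its summed counts of 42117 and 43739 gave a log2 ratio of 0.05 (0.03 to 0.07), and without Kdm4a it was 0.0044 with an interval that held 0 (-0.016 to 0.025).

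The KDM5 genes, which remove H3K4 methylation, went in different directions. Kdm5a had 4211 and 3835 counts and 0.24 (0.18 to 0.31). Kdm5b had 776 and 1024 counts and the lowest log2 fold change of all 48 genes, -0.29 (-0.43 to -0.16), and the X-linked Kdm5c had 6048 and 6815 counts and -0.06 (-0.11 to -0.01). The log2 fold changes of Kdm5a and Kdm5b lay 0.53 apart, the widest gap after that of Hdac9 and Hdac4 (0.74) among the pairs of paralogs set out below. The H3K9 demethylases Kdm3a and Kdm3b also parted: Kdm3a, with 2111 and 2566 counts, was at -0.17 (-0.26 to -0.09), and Kdm3b, with 3545 and 3365 counts, was at 0.18 (0.11 to 0.25). A share of 24.6% of the exon length of Kdm3b lies opposite to Gm26538.

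Kdm6a (UTX), the X-linked H3K27 demethylase of the Kmt2c and Kmt2d complexes, had 2570 and 2330 counts, a log2 fold change of 0.25 (0.17 to 0.33). Its paralog Kdm6b, with 2301 and 2408 counts, was at 0.04 (-0.04 to 0.12), below the interval of Kdm6a. Kdm1a (LSD1), the demethylase of the CoREST complex, had 4690 and 5543 counts and -0.13 (-0.19 to -0.08), while Kdm1b, with 819 and 902, was at -0.03 (-0.17 to 0.11). Kdm2a (-0.07, interval -0.13 to -0.01) and Kdm2b (-0.06, -0.15 to 0.03), both H3K36 demethylases, differed by 0.01. Kdm8, with 191 and 249 counts, was at -0.27 with an interval that reached 0 (-0.55 to 0.0028), and Kdm7a, with 351 and 365, at 0.05 (-0.16 to 0.27).

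The lowest values among the Kmt genes belonged to Kmt2a and Kmt2d, which place H3K4 methylation. Kmt2a (MLL1) had 4268 counts in shcircCsnk1g3 and 5608 in shCTR, or 109 and 133 CPM, a log2 fold change of -0.29 (-0.34 to -0.23). Kmt2d (MLL4), which methylates H3K4 at enhancers, had 5831 and 7175 counts and -0.19 (-0.24 to -0.14), a value that became -0.055 once the median of genes of like GC content and length was subtracted. The intervals of their paralogs held 0: Kmt2b had 2919 and 3021 counts (0.06, -0.02 to 0.13) and Kmt2c had 1396 and 1480 (0.02, -0.08 to 0.13). Kmt2e, which has a SET domain without known methyltransferase activity, had 3548 and 4014 counts and -0.07 (-0.14 to -0.0050), or -0.039 with total counts. Setd8 had 8985 and 9956 counts and -0.04 (-0.08 to 0.00077). Over the 6 genes the median was -0.06 and the summed log2 ratio -0.11 (-0.13 to -0.08), with 3 intervals below 0 and none above, beside 33.0% and 30.8% of genes with at least 1000 summed counts.

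The Setd genes were mixed. Setd2, the enzyme that brings H3K36 to its trimethylated state and a known tumor suppressor, had 3853 and 3521 counts, a log2 fold change of 0.24 (0.17 to 0.30). Setd4 had the highest value of the class but few reads, 120 and 98 counts, at 0.39 (0.0026 to 0.80). Setd5 had 5970 and 6012 counts (0.10, 0.05 to 0.15), and Setd3, an actin histidine methyltransferase, had 3357 and 3413 (0.08, 0.01 to 0.15). The H3K4 enzymes of this class again parted: Setd1b had 1635 and 1609 counts and 0.13 (0.03 to 0.23), or 0.27 after the GC and length subtraction, Setd1a had 3430 and 3941 and -0.09 (-0.16 to -0.03), and Setd7 had 5980 and 6963 and -0.11 (-0.16 to -0.06). For Setd1a, 51.8% of the exon length is also annotated to Gm49388 on the same strand, so its counts depend on how shared reads were assigned. Setd6, with 775 and 916 counts, was at -0.13 (-0.27 to 0.01). Over the 8 genes the median was 0.09, and the summed counts of 25120 and 26473 gave 0.03 (0.0069 to 0.06), which became 0.080 without Setd7 and 0.063 with total counts.

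Set out by the mark they act on, a grouping made after the values were seen, the 6 H3K4 writers of the Kmt2a to Kmt2d and Setd1a to Setd1b group summed to 19479 counts in shcircCsnk1g3 and 22834 in shCTR, a log2 ratio of -0.12 (-0.15 to -0.09). By gene, though, 3 lay above and 3 below 0, the median being -0.035, and the sum rested on Kmt2a and on Kmt2d, whose value depends on the GC and length subtraction. The 5 H3K4 erasers, Kdm1a, Kdm1b, Kdm5a, Kdm5b and Kdm5c, summed to 16544 and 18119, a log2 ratio of -0.02 (-0.05 to 0.0068), with 1 gene higher, 4 lower and a median of -0.065. In these groups sums and medians did not order writers and erasers alike. The writers leave out Setd7, the H3K4 enzyme at -0.11 named above, and the order of the medians rests on that choice. For acetylation the writers lay at 0.09 and the erasers at -0.04, the class sums given above. These sums weigh each gene by its counts and say nothing of enzyme activity or of the marks, which were not measured here.

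Paralogs did not always share a direction. Of the 7 pairs listed first 4 had intervals that did not overlap, and of 6 pairs (Hdac9 and Hdac4, Kdm5a and Kdm5b, Kdm3a and Kdm3b, Kmt2a and Kmt2b, Kdm6a and Kdm6b, Kdm1a and Kdm1b) added after their values were seen 5 had such intervals. The pairs without overlap were Hdac1 and Hdac2, Hdac4 and Hdac5, Hdac9 and Hdac4, Kdm5a and Kdm5b, Kdm3a and Kdm3b, Kdm6a and Kdm6b, Kmt2c and Kmt2d, Kmt2a and Kmt2b, and Setd1a and Setd1b. Those of Kat2a and Kat2b, Kat6a and Kat6b, Kdm2a and Kdm2b, and Kdm1a and Kdm1b overlapped. These counts describe a chosen set of pairs and were not set against pairs of other genes. After the GC and length subtraction the gap between Kmt2c and Kmt2d went from 0.21 to 0.096, that of Hdac1 and Hdac2 from -0.24 to -0.14, and that of Setd1a and Setd1b from -0.22 to -0.37. The estimated counts divide reads shared by near-identical stretches, and the part of that division in these gaps was not tested.

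Genes that work with the enzymes were read from 9 lists, with 119 genes that met the count minimum. Of these, 71 were higher and 48 lower, where 50.4% and 49.6% of all genes tested were, and the median was 0.06. Past 1.5-fold 1 was higher and 1 lower, beside 5.39% and 6.31% of all genes tested. The subunits of acetyltransferase complexes had the highest median of the 9 lists, 0.15 over 31 genes, of which 21 were higher, 20 had an interval above 0 and 3 below, beside 30.8% and 33.0% of genes with at least 1000 summed counts, a depth that all 31 reach. Among them Ing4, a reader of H3K4 methylation in the HBO1 complex, had 1536 and 1264 counts (0.39, interval 0.28 to 0.50), and Jade1, a scaffold of that complex, had 3139 and 2733 (0.31). Not all partners of Kat8 shared its direction: Kansl1 was at 0.22 and Kansl3 at 0.18, while Kansl2 (7251 and 9183 counts) was at -0.23, Msl1 at -0.18 and Msl2 at -0.18. Jade1, Kansl1, Kansl3, Msl1 and Msl2 were named after their values were seen.

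The other lysine acetyltransferases had a median of 0.12 over 7 genes, from Ncoa1 at -0.19 to Ncoa2 at 0.23, and the median became 0.013 once genes of like GC content and length were subtracted. Ep300 and Crebbp, the major acetyltransferases of enhancers, were at 0.17 and 0.12. Sirtuins, the NAD-dependent deacetylases, had a median of 0.08 over 7 genes, which became -0.0085 with a minimum of 200 summed counts: Sirt1, with 1655 and 1285 counts, was at 0.47 (0.37 to 0.58), Sirt7, with 714 and 1024, at -0.41 (-0.55 to -0.27), and Sirt5, with 94 and 66 counts, was the one related gene past 1.5-fold higher, at 0.60 (0.15 to 1.09). Corepressor subunits that carry class I deacetylases had a median of 0.02 over 22 genes. They ran from Chd3, a remodeller of the NuRD complex with 7591 and 10623 counts, at -0.38, to Rcor3 at 0.28.

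COMPASS subunits, the partners of the H3K4 writers, had a median of -0.0048 over 11 genes. One of them, Pagr1a, which joins the Kmt2c and Kmt2d complexes, had 139 counts in shcircCsnk1g3 and 291 in shCTR, a log2 fold change of -0.95 (-1.26 to -0.66). Men1, the tether of Kmt2a to chromatin, was at -0.25, and Rbbp5, a core subunit of all these complexes, at 0.28. Of the polycomb complex PRC2, which writes H3K27 methylation, Ezh1 was at 0.38 with 3233 and 2676 counts, Ezh2 at 0.23 with 3226 and 2961, and Eed at -0.12, with a median of 0.07 over 11 genes. Other lysine methyltransferases ran from Ehmt2 at -0.10 to Dot1l, the H3K79 methyltransferase, at 0.34 among those with at least 200 summed counts, with a median of 0.09 over 16. Among arginine methyltransferases (median 0.02, 8 genes) Prmt3, which acts mainly on a ribosomal protein, was lowest with 1714 and 2698 counts at -0.55 (-0.64 to -0.46). Other Jumonji proteins had a median of 0.05 over 7 genes. The 3 enzymes under older symbols were Suv420h1 (Kmt5b) at 0.21, Suv420h2 (Kmt5c) at 0.02 and Csrp2bp (Kat14) at 0.14.

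**Figure D5:**
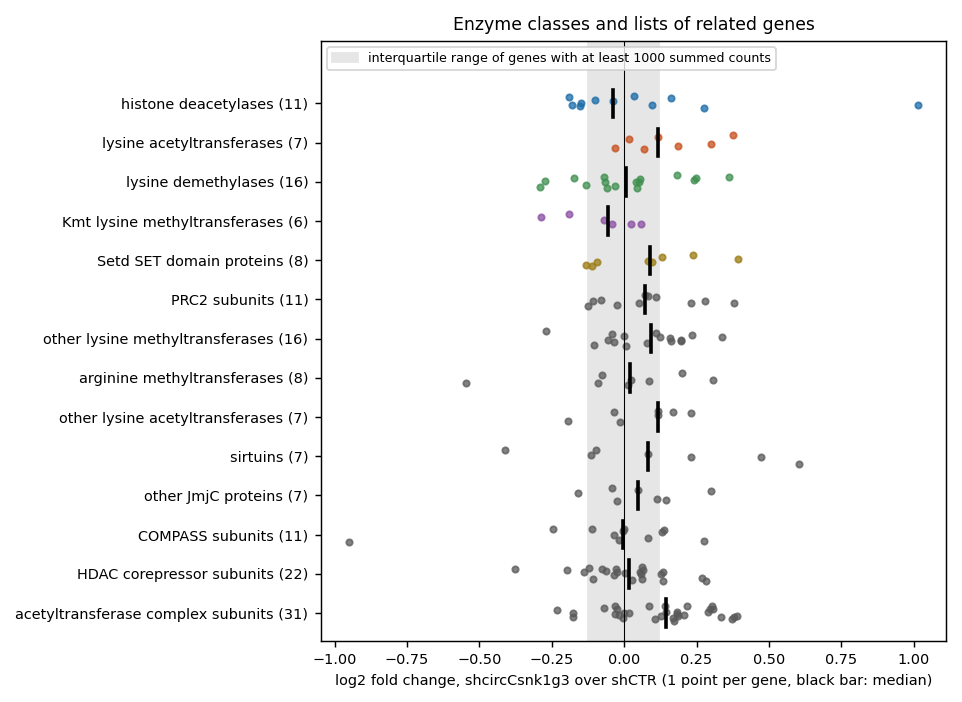
Log2 fold change of shcircCsnk1g3 over shCTR (x axis), 1 point per gene, for the 5 enzyme classes (coloured) and the 9 lists of related genes (grey), with a black bar at each median and the interquartile range of all genes with at least 1000 summed counts shaded. Medians run from -0.06 for the Kmt genes to 0.15 for acetyltransferase complex subunits, and Hdac9 (1.01) and Pagr1a (-0.95) are the points farthest out.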

How the data were processed

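RNA of shcircCsnk1g3 and shCTR sarcoma cells (1 library each, polyadenylated RNA, stranded kit) was measured by sequencing; alignment by the authors used STAR and quantification RSEM. The authors deposited estimated counts, already rounded to integers, of 25509 genes and 92 spike-in rows that were all 0 and were left out. The authors also deposited TMM-scaled CPM for 11624 genes, a table that holds all 48 enzyme genes and was used as an alternative; in either library it equals the counts times a constant. The annotation release, and whether counting used the strand, are not given in the sources used here. Besides the overlaps named above, exons on the opposite strand overlap Hdac11 (15.4%, Gm44002), Kmt2e (9.3%, Srpk2), Kdm1b (9.2%, Dek) and Kdm2b (5.8%, Rnf34). Smaller overlaps of other enzymes are not listed. Symbols are those of the table; lengths, GC content and coordinates came from GENCODE M21 on GRCm38, which holds all 48, and promoters from RefSeq on GRCm38.p6.

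Genes with at least 10 counts in 1 library were kept. TMM factors from edgeR 4.0.16 (R 4.3.3) were 1.01 for shcircCsnk1g3 and 0.989 for shCTR. A prior count of 2, scaled to the library, was added before log2 ratios of CPM were taken, and this pulls poorly covered genes towards 0. The 95% intervals (Clopper-Pearson, on the share of a gene's counts in shcircCsnk1g3) cover counting error only. Reads without molecular identifiers are not independent molecules, so the intervals can be too narrow even for that error. A floor of 3 counts corresponds to 0.0765 CPM in shcircCsnk1g3 and 0.0710 CPM in shCTR. With 1 library per condition no test was made, and counts past a fold are read beside those of all genes. The rest ran in python 3.11.15 (scipy 1.17.1, pandas 2.3.3, numpy 2.4.6; plots by matplotlib 3.10.9). The steps were tested on simulated counts.

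Members and lists were chosen with earlier results of these data known. Genes named by rule were those past 1.5-fold, the 2 highest and 2 lowest of each class with at least 200 summed counts, the most abundant per kilobase, those at the minimum, paralogs, and the highest and lowest of each related list. Other names were added after their values were seen. Alternatives were DESeq2 1.42.0 size factors, total counts, prior counts of 0.5 and 10, the deposited CPM, other count minimums and fold thresholds and, chosen after seeing the data, a minimum of 1000 summed counts, class sums without the member of the highest level per kilobase, and subtraction of the median of genes in the same GC and length deciles. Protein identity between paralogs was not analysed here.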

Additional observations from a re-analysis of the deposited data

How the results depend on the processing

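Over 62 values and 588 recomputations, 570 stayed within the half-width of the counting interval or within 1.5 times the main count. Medians have no such interval and were judged by the median half-width of their genes. Of the recomputations 394 were of named genes, and a changed count minimum cannot move the fold change of a gene. Of 20 recomputed class sums 8 stayed and 12 moved. The number of enzymes higher past 1.5-fold was 2 with no count filter (Kdm5d, at 1 and 0 counts, was added), 0 with at least 1000 summed counts (Hdac9 has 416) and 4 past a log2 fold change of 0.32. With total counts in place of TMM, which moves the median of all genes by 0.03, the class sums became -0.0093 for deacetylases, 0.12 for acetyltransferases, 0.084 for demethylases, -0.075 for Kmt genes and 0.063 for Setd genes. The intervals of 20 enzymes then lay above 0 and of 9 below. Those of Kmt2e, Kdm2a, Kdm5c and Setd1a, below 0 with TMM, held 0 with total counts. Without the member with the most counts the sums were 0.074 for demethylases (Kdm5c left out), -0.14 for Kmt genes (Setd8) and 0.080 for Setd genes (Setd7). Without the member of the highest level per kilobase, an alternative chosen after seeing the data, they were 0.0044 for demethylases (Kdm4a) and -0.014 for deacetylases (Hdac1), and again -0.14 and 0.080 for Kmt and Setd genes. After subtraction of genes of like GC content and length, the median of other lysine acetyltransferases was 0.013, that of demethylases -0.035, Hdac2 0.019, Hdac5 -0.032, Setd1b 0.27, Kmt2d -0.055 and Dot1l 0.41; of the 48 enzymes Hdac2, Hdac5, Setd1b and Kmt2d, 4 in all, left their counting interval, and Kdm7a changed sign within its own (-0.030). The cause was not tested. The sirtuin median was -0.0085 with a minimum of 200 or 1000 summed counts, and the COMPASS median 0.026 with total counts. No paired analysis was possible because each hairpin had a single library, and so no replicate could be left out. Depth limits Hdac11 most, whose 64 and 79 counts leave an interval of -0.69 to 0.30.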
